A study of Mus musculus with 3 samples.

Results

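The 10 genes described here form the core circadian clock of mouse cells and its linked feedback loops: Arntl (also known as Bmal1), Clock, Per1, Per2, Cry1, Cry2, Nr1d1, Nr1d2, Bhlhe40 and Bhlhe41. They were taken by gene symbol from the deposited tables, and all 10 were found among 55536 annotated genes. Their levels were read in RNA held on the chromatin of bone marrow-derived macrophages from C57BL/6J mice, cells grown in culture out of marrow progenitors. All libraries came from 1 group, with 100 ng/ml Lipid A for 12 h, a washout of 12 h and then 100 ng/ml Lipid A again for 120 min. Lipid A is the lipid anchor of bacterial endotoxin, and macrophages sense it through Toll-like receptor 4. The group held 3 libraries labelled as biological replicates, made from 1 µg, 250 ng and 500 ng of RNA in replicates 1, 2 and 3, after removal of ribosomal RNA. The labels give all 3 libraries the same donor entry and leave unsaid whether they derive from separate animals, so each SD, and each p, covers only how these 3 samples varied, which may be technical variation. Untreated cells and cells given Lipid A once were not analysed here, and neither were other times of day. Each value is therefore a level in 1 condition at 1 moment, not a response to Lipid A and not a rhythm.

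In the clock, the proteins of Arntl and Clock pair and bind DNA at E-boxes, short sites of the form CACGTG, and switch on the Per, Cry, Nr1d and Bhlhe genes. Per and Cry proteins return to the nucleus and block the Arntl-Clock pair, while the nuclear receptors encoded by Nr1d1 and Nr1d2 (REV-ERB alpha and REV-ERB beta) repress Arntl through ROR elements. Bhlhe40 and Bhlhe41 (DEC1 and DEC2) encode repressors that bind E-boxes as well. Macrophages have such a clock, and its proteins are known to act on inflammatory genes.

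E-boxes are among the sites through which the members regulate each other, so those found in the promoters are shown before the levels. The RefSeq promoter table (GRCm38.p6, 250 bases before to 50 bases after each annotated start) held 12 promoters of 8 members. Per2 and Bhlhe40 had no promoter in it, so theirs were not searched. The perfect palindrome CACGTG stood in promoters of 3 of these 8 members, Bhlhe41, Cry1 and Per1, and in 8.09% of the 27025 genes in the table. In the windows printed below, capitals mark the E-box and 30 bases are given on each side, 5′ to 3′ on the strand of the gene. The Bhlhe41 window is chr6:145865538-145865603 on the minus strand, with the E-box 153 bases before the start that RefSeq gives; in GENCODE its 3′ end runs into the first exon. The Cry1 window is chr10:85185079-85185144 on the minus strand, with the E-box 60 bases before the start and outside the gene in GENCODE. The Per1 window is chr11:69098753-69098818 on the plus strand, 166 bases before the start, which in GENCODE puts it ahead of the first exon of isoform Per1-201 and within the first intron of Per1-202.
Bhlhe41: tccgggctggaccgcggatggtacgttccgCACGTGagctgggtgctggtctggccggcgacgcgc
Cry1: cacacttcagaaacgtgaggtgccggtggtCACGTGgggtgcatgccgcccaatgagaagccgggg
Per1: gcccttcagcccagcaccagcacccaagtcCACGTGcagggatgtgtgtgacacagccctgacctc

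Other motifs were searched by letters on both strands. The E-box variant CACGTT stood in promoters of Cry1, Cry2 and Nr1d1, 79, 166 and 28 bases before their starts, and in 5.44% of genes; the Cry1 copy reads on the opposite strand within the window above. The ROR element core TAGGTCA was found in Arntl alone among the 8 members in the table, 30 bases after the start, and in 2.97% of genes. The cyclic AMP response half-site TGACG was in promoters of Cry1, Cry2 and Per1 and in 23.0% of genes. No copy of one motif overlapped a copy of another in these promoters, a match describes the sequence only, and no binding was measured.

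The libraries held 10293545, 17820066 and 17548564 expected counts in replicates 1, 2 and 3. Replicate 1 stood apart: the length the authors' tables subtract from each transcript to reach its effective length was 151 bases there, against 258 and 252 bases in replicates 2 and 3, and its log2 levels correlated less with the others across 9245 expressed protein-coding genes (Pearson r of 0.948 and 0.946) than those of replicates 2 and 3 with each other (0.978). These r values are across genes, which are not independent replicates. Macrophage markers were present in all libraries (10 of 10 at a TPM of at least 1, summed TPM 1091 to 1698), and 0 of 26 markers of neutrophils, B cells, T cells, erythroid cells, fibroblasts and dendritic cells reached that level in all 3 (9 of the 26 at 0 throughout, at most 1.55 summed TPM per type). Fewer cells that express a gene and less of its RNA per cell cannot be told apart in such libraries.

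Levels are given as TPM, a transcript abundance scaled for length and library size, from the tables quantified on aligned reads (alignment-based), and a gene was called expressed if it reached 1 TPM in each of the 3 libraries. A separate table made without that alignment is called read-based. By the rule of 1 TPM, 8 of the 10 members were expressed, where 42.0% of 22028 protein-coding genes were. Per2 and Nr1d1 were the members that were not. Mean levels ran from 27.0 TPM for Clock to 0.42 TPM for Nr1d1, as the plot of levels by library shows.

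**Figure D1:**
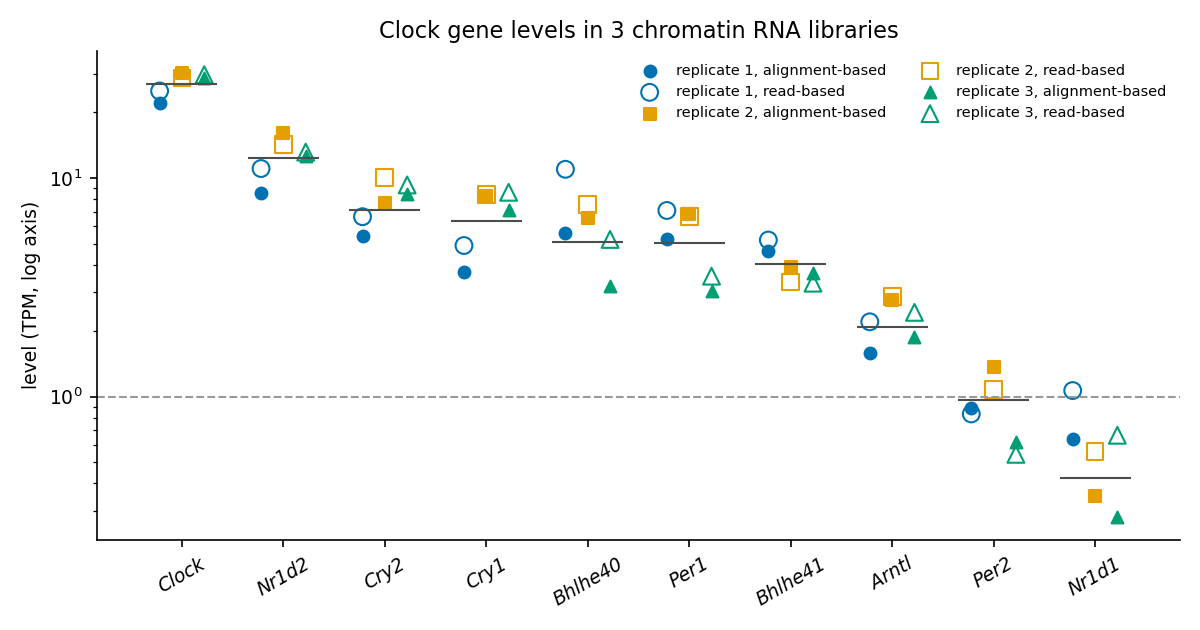
Level of each clock gene (TPM, log axis) in replicates 1, 2 and 3, with filled symbols for alignment-based values, open symbols for read-based values, and a bar at the alignment-based mean of 3 libraries; genes run from high to low mean and the dashed line is at 1 TPM. Clock lies above every other member in every library, and Per2 and Nr1d1 lie around or below the dashed line. From Cry2 through Cry1, Bhlhe40 and Per1 to Bhlhe41, each gene overlaps the next in alignment-based range.

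Of the activators, Clock (chromosome 5, 76209868 to 76304792, minus strand, mm10) encodes a transcription factor of the basic helix-loop-helix PAS family. It had 21.9, 30.2 and 28.8 TPM in replicates 1, 2 and 3 (27.0 ± 4.42, SD, n = 3), above each other member in each library, and 72.7% of expressed protein-coding genes had a lower mean. Its partner Arntl (chromosome 7, 113207465 to 113314126, plus strand) had 1.59, 2.77 and 1.87 TPM (2.08 ± 0.62, n = 3), and 5.52% of expressed genes lay below it. Arntl was thus expressed, but near the bottom of the genes that were.

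The period genes encode the PER proteins, whose build-up and decay time the cycle. Per1 (chromosome 11, 69095217 to 69109960, plus strand) had 5.24, 6.82 and 3.05 TPM (5.04 ± 1.89, n = 3). Per2 (chromosome 1, 91415982 to 91459324, minus strand) had 0.89, 1.37 and 0.62 TPM (0.96 ± 0.38, n = 3), on 62, 119 and 60 expected counts. Per2 passed 1 TPM in replicate 2 alone, and both genes were lowest in replicate 3.

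The cryptochromes, whose proteins are the main inhibitors of the Arntl-Clock pair, were close to each other. Cry1 (chromosome 10, 85131700 to 85185064, minus strand) had 3.73, 8.25 and 7.14 TPM (6.37 ± 2.36, n = 3). Cry2 (chromosome 2, 92403646 to 92434043, minus strand) had 5.42, 7.67 and 8.42 TPM (7.17 ± 1.56, n = 3). Their ranges overlapped, and both were lowest in replicate 1 on this scale.

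The REV-ERB genes were far apart. Nr1d2 (chromosome 14, 18204054 to 18239127, minus strand) had 8.51, 16.1 and 12.6 TPM (12.4 ± 3.80, n = 3), the next highest level after Clock and close to the middle of expressed genes, 50.8% of which lay below it. Nr1d1 (chromosome 11, 98767932 to 98775333, minus strand) had 0.64, 0.35 and 0.28 TPM (0.42 ± 0.19, n = 3), the lowest member in each library of the alignment-based tables. These Nr1d1 values rest on 9.53, 6 and 8.17 expected counts, for which exact Poisson 95% intervals on the rounded counts were 4.80 to 18.4, 2.20 to 13.1 and 3.45 to 15.8; such intervals cover counting error only. Its 3 levels could not be ordered at this depth.

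The E-box repressors lay in the middle of the members. Bhlhe40 (chromosome 6, 108660629 to 108666925, plus strand), known as a gene that many stimuli induce, had 5.58, 6.57 and 3.19 TPM (5.11 ± 1.74, n = 3). Bhlhe41 (chromosome 6, 145858243 to 145865558, minus strand) had 4.61, 3.91 and 3.66 TPM (4.06 ± 0.49, n = 3). Their ranges overlapped. Bhlhe41 varied least among the members on the TPM scale, its highest library being 1.26 times its lowest.

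Some neighbours in the order of mean TPM did not overlap in range over the 3 libraries. They were Clock above Nr1d2, Nr1d2 above Cry2, Bhlhe41 above Arntl, and Arntl above Per2. The gap below Nr1d2 was narrow, with its lowest library at 8.51 TPM and the highest of Cry2 at 8.42 TPM. Without isoforms under 1000 bases the ranges of Nr1d2 and Cry2 overlapped, and those of Arntl and Per2 overlapped by little. Cry2, Cry1, Bhlhe40, Per1 and Bhlhe41 formed a run in which every neighbouring pair overlapped, each in the stated order in 2 of 3 libraries. Per2 and Nr1d1 overlapped in range as well, though Per2 was higher in 3 of 3; in the read-based table Nr1d1 was above Per2 in replicates 1 and 3 (1.06 against 0.83 TPM, and 0.66 against 0.54 TPM). The order of neighbours in the run is thus within the spread between libraries. The ends of the run did not overlap, with Cry2 at 5.42 to 8.42 TPM and Bhlhe41 at 3.66 to 4.61 TPM.

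Related genes were then compared inside each library, which removes differences in depth between libraries; the test for the 5 pairs was an exact, two-sided permutation of signs on log2(TPM + 0.1), and the smallest p that 3 libraries allow is 0.25. On this scale ratios of low genes are understated. Clock stood above Arntl by 3.71, 3.40 and 3.87 log2 units in replicates 1, 2 and 3 (3.66 ± 0.24, n = 3), with TPM ratios of 13.8, 10.9 and 15.4. Nr1d2 stood above Nr1d1 by 3.54, 5.17 and 5.06 (4.59 ± 0.91, n = 3), and Per1 above Per2 by 2.23 to 2.43 (2.27 ± 0.15, n = 3), a TPM ratio of 5.26 ± 0.54. Each of these 3 pairs kept 1 direction in 3 of 3 libraries and gave an exact permutation p of 0.25, or 0.417 after Benjamini-Hochberg adjustment over the 5 pairs, so none could pass a threshold of 0.05 in this design.

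The other two pairs did not keep 1 direction across libraries in these values. Cry1 over Cry2 was -0.53, 0.10 and -0.23 log2 units (-0.22 ± 0.32, n = 3), with Cry1 lower in 2 of 3 libraries. In the read-based table it was lower in 3 of 3, at a mean of -0.26, and likewise in 3 of 3 (-0.70) over isoforms of at least 1000 bases. Bhlhe40 over Bhlhe41 was 0.27, 0.73 and -0.19 (0.27 ± 0.46, n = 3), with Bhlhe40 higher in 2 of 3. Over isoforms of at least 1000 bases Bhlhe40 was higher in 3 of 3 (0.19), and likewise in the read-based table (0.95). Counts scaled for library size but not for length (CPM) put Bhlhe40 below Bhlhe41 instead (-0.95). That scale does not compare genes of unequal length. Both pairs had an exact permutation p of 0.5, raw and adjusted.

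**Figure D2:**
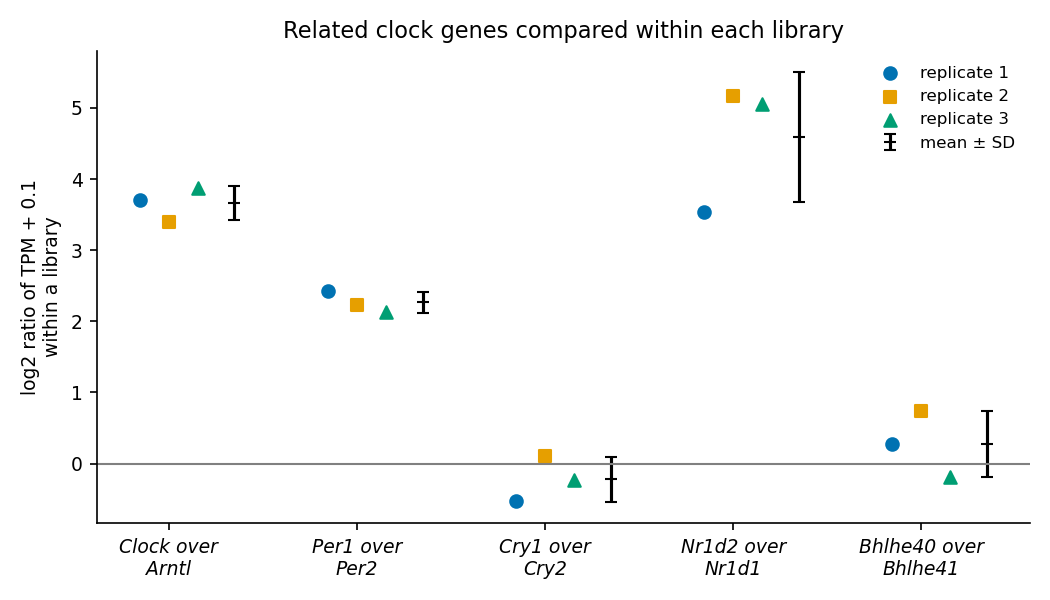
Log2 ratio of TPM + 0.1 within each library for 5 pairs of related genes, with replicates 1, 2 and 3 as points and the mean ± SD beside them; the line at 0 marks equal levels. Clock over Arntl, Per1 over Per2 and Nr1d2 over Nr1d1 lie above 0 in all 3 libraries, while Cry1 over Cry2 and Bhlhe40 over Bhlhe41 lie on both sides of it.

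As groups, the 8 repressors averaged 1.78, 2.12 and 1.63 on the log2(TPM + 0.1) scale in replicates 1, 2 and 3, and the 2 activators 2.61, 3.22 and 2.91. Repressors were thus lower by a difference of -0.83, -1.10 and -1.29 (-1.07 ± 0.23, n = 3), a description with no test. The activator mean joins Clock, the highest member, with Arntl, which lay below all repressors other than Per2 and Nr1d1, so it stands for neither gene. Taking medians in place of means within each group gave a difference of -0.61.

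The spread between libraries was read on library-scaled counts with TMM factors (CPM), which compares a gene with itself across libraries; 9 members had at least 10 counts in each library, as did 13301 genes, and Nr1d1 did not. Clock and Nr1d2 were the steadiest. Clock had 123.8, 115.4 and 125.4 CPM in replicates 1, 2 and 3, an SD of log2(CPM + 0.5) of 0.064 that was above that of 5.50% of genes. Nr1d2 had 28.0, 26.8 and 28.8 CPM (SD 0.052, above 3.62% of genes). The highest library of Clock was thus 1.09 times its lowest and that of Nr1d2 1.08 times its lowest in CPM, although in TPM the same ratio was 1.89 for Nr1d2.

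At the other end, Per1 had 24.5, 20.2 and 12.1 CPM in replicates 1, 2 and 3 (SD 0.51, above 84.6% of genes). Per2 had 6.02, 6.67 and 3.52 CPM (SD 0.45, above 78.9%). These shares of genes are not matched for count, and counting error weighs more on genes with few counts. Per2 had 62, 119 and 60 counts where Clock had 1274, 2057 and 2139. Per1 (252, 360 and 207 counts) and Nr1d2 (288, 478 and 492 counts) were closer in count. Per1 and Per2 were both lower in replicate 3 than in each other library by over 1.5-fold. That held for 2 of the 9 members and for 2.71% of the 13301 genes; the pattern was picked after the values were seen, and it rests on 1 library. Without replicate 3 the SD of Per1 was 0.19 and that of Per2 was 0.10. What sets replicate 3 apart in the period genes was not tested.

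Cry1 (9.04, 13.0 and 14.1 CPM, SD 0.33) was lowest in replicate 1, and without that library its SD was 0.075. Bhlhe40 (11.4, 8.36 and 8.38 CPM, SD 0.24) was highest in replicate 1, and its other two libraries nearly coincided. Arntl (5.34, 7.01 and 5.45 CPM), Cry2 (18.2, 14.9 and 18.8 CPM) and Bhlhe41 (20.3, 17.8 and 16.1 CPM) had SDs of 0.20, 0.18 and 0.16, lower than the median of 0.27 over all genes. Arntl was highest and Cry2 lowest in replicate 2, and without it their SDs were 0.026 and 0.039. Across the 9 members the median SD was 0.20, or 0.11 without replicate 1. The median over all genes was not computed without that library. Replicate 1 was the lowest library for 2 of the 9 members (41.3% of all genes), replicate 2 for 4 (28.4%) and replicate 3 for 3 (30.2%). Replicate 1 was the highest for 3 of the 9 (40.4%), replicate 2 for 2 (28.9%) and replicate 3 for 4 (30.7%).

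**Figure D3:**
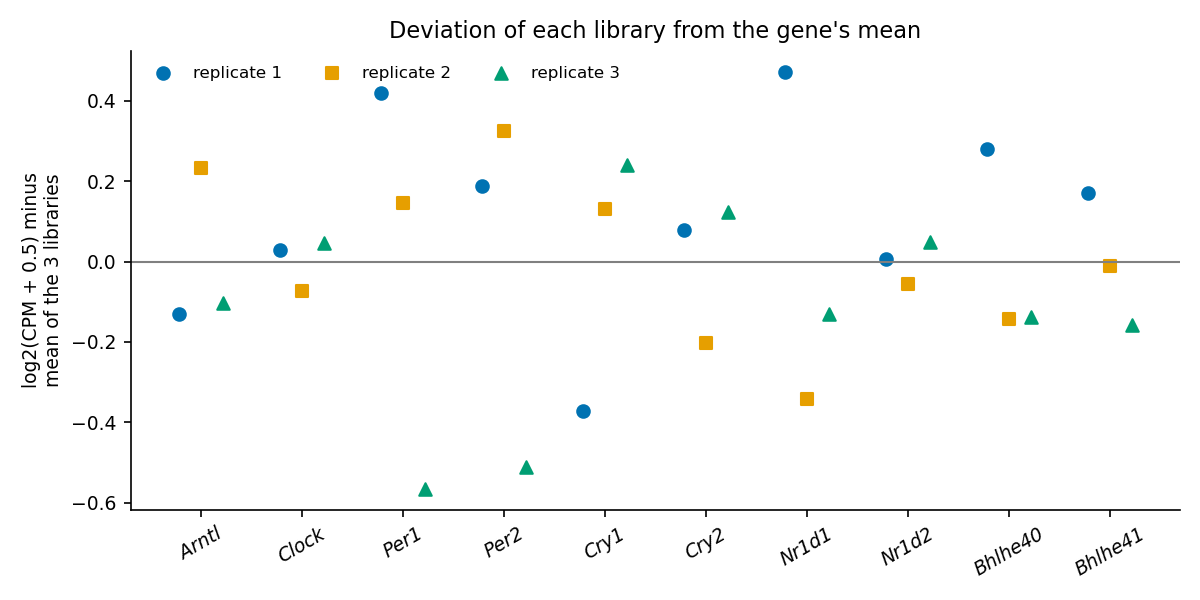
Deviation of log2(CPM + 0.5) in replicates 1, 2 and 3 from the mean of the 3 libraries for each clock gene. Nr1d1 is drawn although its rounded counts are under 10 in replicates 2 and 3. Clock and Nr1d2 stay close to 0, and the replicate 3 points of Per1 and Per2 lie below their other points by over 1.5-fold.

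Chromatin RNA includes transcripts that still hold introns, and the annotation names isoforms of this kind (retained intron) for 6 of the members: Arntl, Clock, Cry1, Nr1d2, Bhlhe40 and Bhlhe41. Introns that no annotated isoform holds have no row in the tables. Retained-intron isoforms held 53.8, 67.2 and 58.9% of the TPM of Nr1d2 in replicates 1, 2 and 3 (60.0 ± 6.78, n = 3), and Nr1d2 was the 1 member at 50% or more in each library, where 33.4% of 5967 expressed protein-coding genes with such isoforms were. Arntl had 53.5, 47.5 and 52.1% and Clock 39.3, 53.3 and 51.8%, both around the median of 46.8% over those genes. Bhlhe40 had 31.2, 66.4 and 52.4%, Cry1 33.5, 37.1 and 31.7%, and Bhlhe41 15.4, 12.0 and 27.9%. Without replicate 1 the number at 50% or more was 3, with Bhlhe40 and Clock added, and without replicate 2 it was 2, with Arntl added. The share over all such genes was not computed with a replicate left out. The members as a group were thus spread around the median of such genes.

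Shares of TPM weigh short isoforms heavily, and shares of expected counts differed for several members. Retained-intron isoforms held 22.9% of the counts of Nr1d2 and 22.9% of those of Clock on average, against 60.0% and 48.2% of TPM, and for Cry1 4.15% of counts against 34.1% of TPM. For Arntl (54.8% of counts) and Bhlhe40 (47.6%) the measures were closer, and long isoforms carried most of the counts.

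**Figure D4:**
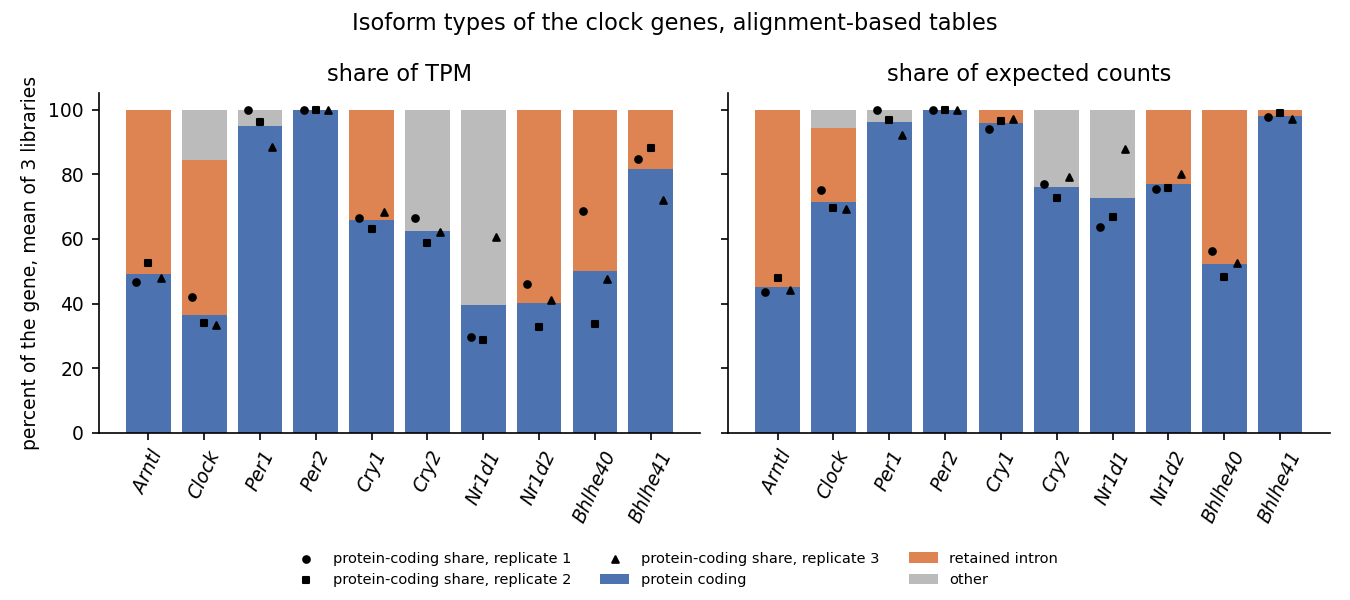
Mean share of each clock gene's TPM (left) and expected counts (right) in protein-coding, retained-intron and other annotated isoforms over 3 libraries, with black markers for the protein-coding share in each replicate. Retained-intron shares of Cry1, Nr1d2 and Clock are larger by TPM than by counts. Per2, which has no annotated retained-intron isoform, is assigned wholly to a protein-coding isoform.

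Single isoforms show which transcripts these shares stand for. In Arntl, the retained-intron isoform Arntl-202 (3995 bases) and the coding Arntl-201 (2908 bases) both carried reads, with 29, 63 and 50 counts for Arntl-202 and 18.2, 59.9 and 41 counts for Arntl-201 in replicates 1, 2 and 3. The read-based table gave Arntl-202 27.3, 29.5 and 26.3% of Arntl TPM and Arntl-201 22.6, 55.7 and 55.1%. In Clock, the long coding isoform Clock-205 (9744 bases) held 61.1 to 61.7% of counts in each library. The retained-intron isoforms Clock-203 (2287 bases) and Clock-206 (2473 bases) held 32.9% and 15.3% of its TPM on average. The Clock makeup was close to alike in replicates 2 and 3, with Clock-206 at 18.5% and 17.6% of TPM, and lower in replicate 1, at 9.89%.

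In Nr1d2, the 687-base retained-intron isoform Nr1d2-203 had 1.28, 8.01 and 4.89 TPM on 8.41, 53.6 and 36.6 counts, and the longer retained-intron isoform Nr1d2-202 (1680 bases) had 3.30, 2.83 and 2.52 TPM. The coding isoform Nr1d2-201 (4663 bases) had 3.93, 5.28 and 5.18 TPM. Most of the difference in Nr1d2 TPM between libraries thus lay in the 1 short isoform. Summed over isoforms of at least 1000 bases, mean Nr1d2 was 7.68 TPM, against 6.58 TPM for Cry2 and 27.0 TPM for Clock.

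Bhlhe40 had its reads split between the coding Bhlhe40-201 (3113 bases; 56.8, 69.8 and 75.0 counts) and the retained-intron Bhlhe40-204 (2620 bases; 50.9, 72.3 and 68.0 counts). Both were steady between libraries, at 1.56, 1.57 and 1.52 TPM for Bhlhe40-201 and 1.68, 1.97 and 1.67 TPM for Bhlhe40-204. The remaining TPM came from Bhlhe40-202 (476 bases; 2.27, 0.64 and 0 TPM) and Bhlhe40-203 (368 bases; 0.06, 2.39 and 0 TPM), on at most 9.09 counts each. The lower Bhlhe40 TPM in replicate 3 thus went with those short isoforms at 0.

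Bhlhe41 came mostly from the coding Bhlhe41-201 (6133 bases), with 93.4, 99.0 and 97.2% of its counts. The short coding isoform Bhlhe41-202 (744 bases) appeared in replicate 1 alone, at 1.24 TPM on 9.06 counts, and the retained-intron Bhlhe41-203 (690 bases) had 0.71, 0.47 and 1.02 TPM. Without isoforms under 1000 bases, mean Bhlhe41 was 2.91 TPM. That left Bhlhe41-201 alone, at 2.66, 3.44 and 2.64 TPM in replicates 1, 2 and 3. Bhlhe41 was then no longer the member that varied least, since Bhlhe40 and Nr1d2 had lower ratios of highest to lowest library.

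Per1 was shared by 2 long coding isoforms that begin at different first exons. Per1-201 (4671 bases), the form that starts just after the E-box printed above, had 2.55, 3.31 and 1.98 TPM, and Per1-202 (3507 bases) had 2.69, 2.34 and 0.71 TPM. Per1-202 thus differed more between replicate 3 and the other two libraries than Per1-201 did in the alignment-based table, with no test of that difference. Read-based values were 2.23, 1.69 and 0.84 TPM for Per1-202 and 2.49, 3.20 and 1.72 TPM for Per1-201, a smaller contrast. The 496-base Per1-204 had 3.45 counts in replicate 2 and none in the other two libraries in the alignment-based table, while the read-based table put 19.8% of Per1 TPM there. Per2 had 1 isoform with reads, Per2-201 (5833 bases), in both tables.

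Cry1 was carried by the coding Cry1-201 (3026 bases; 87.5, 223.8 and 232.7 counts), with the short retained-intron isoforms Cry1-202 (406 bases) and Cry1-204 (506 bases) on at most 6.44 counts each. Cry2 was divided among the coding Cry2-201 (3976 bases; 62.0, 45.5 and 52.1% of counts), the coding Cry2-202 (2160 bases; 14.9, 27.1 and 27.0%) and the processed transcript Cry2-203 (2082 bases; 23.1, 27.1 and 20.3%). The 337-base Cry2-204 had at most 2 counts. Nr1d1 had its few counts in the coding Nr1d1-201 (2721 bases; 6.06, 4 and 7.17) and the 781-base processed transcript Nr1d1-202 (3.46, 2 and 1).

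The authors also deposited a transcript table quantified from the reads without that alignment (read-based), which gave a check on the levels. Its mean TPM was 27.8 for Clock, 12.8 for Nr1d2, 8.66 for Cry2, 7.92 for Bhlhe40, 7.31 for Cry1, 5.77 for Per1, 3.95 for Bhlhe41, 2.50 for Arntl, 0.82 for Per2 and 0.76 for Nr1d1. Both tables placed Clock and Nr1d2 first and Arntl, Per2 and Nr1d1 last. None of the 10 members, with Per2 and Nr1d1 included though not expressed, differed between them by over 2-fold in the same direction in all libraries. Of 9245 expressed protein-coding genes 9.44% did, so none among 10 members is near that share. Nr1d1 came closest, at read-based over alignment-based ratios of 1.66, 1.60 and 2.37. Bhlhe40 had ratios of 1.96, 1.15 and 1.64, and in the read-based table it stood above Bhlhe41 in 3 of 3 libraries, by 0.95 log2 units on average.

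Genes that overlap members bear on these values, because the sources used here do not give whether counting used strand. The 3′ end of Nr1d1 overlaps Thra, a thyroid hormone receptor gene on the opposite strand, over 263 of its 3077 exonic bases. Thra had 85.5, 98 and 156 counts in replicates 1, 2 and 3 where Nr1d1 had 9.53, 6 and 8.17, so reads from Thra could be a part of the Nr1d1 level, and this was not tested. Bhlhe41 shares 1280 of 6720 exonic bases with Gm43909 on the opposite strand (2.76 ± 0.58 TPM, n = 3), and Cry2 shares 295 of 6320 with D930015M05Rik (1.17 ± 0.24 TPM, n = 3). Opposite-strand partners of Bhlhe40 (0610040F04Rik) and Arntl (Gm45355) had at most 1 count in any library. Clock contains Gm43658 (5.14 ± 2.66 TPM, n = 3) and Ube2n-ps1 (1.82 ± 0.61 TPM, n = 3) on its own strand within introns, with 0 exonic bases shared.

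Of 30 further genes of the clock, listed by role but with earlier results of these data known, 19 were expressed by the same rule. Over all 22028 protein-coding genes the share was 42.0%. By read-based values 22 of the 30 were expressed, and no share over all genes was computed for those values. Highest by alignment-based mean were Sfpq and Nono, RNA-binding proteins that also bind PER complexes, at 214.9 ± 59.3 and 114.5 ± 20.6 TPM (n = 3 each). Nampt, a clock-controlled enzyme of NAD synthesis (68.9 ± 8.76 TPM, n = 3), and the kinase gene Gsk3b (49.9 ± 7.66 TPM, n = 3) were also among the 5 highest. These named genes were above each of the 10 members in every library. By read-based mean, Csnk1d, a kinase gene, and Nampt stood above Nono, at 149.8, 141.4 and 119.6 TPM; Csnk1d had 45.1 TPM in the alignment-based tables.

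The direct relatives of the members differed. Per3, the remaining period gene, had 2.57, 4.77 and 3.58 TPM (3.64 ± 1.10, n = 3), between Per1 and Per2 by alignment-based mean, with a range that overlapped that of Per1. Npas2, which can stand in for Clock, had 1, 4 and 3 counts (0.04 ± 0.02 TPM, n = 3). Arntl2, the relative of Arntl, had 1, 1 and 0 counts (0.043 ± 0.051 TPM, n = 3) in the alignment-based tables.

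The read-based table gave another picture for Arntl2, at 31.6, 58.9 and 51.7 TPM. There 91.6, 92.3 and 89.5% of it lay in Arntl2-208, a 907-base retained-intron isoform with 414.8, 1013 and 886 read-based counts, while Arntl2-209, also a retained-intron isoform, held nearly all the rest. The coding isoforms of Arntl2 had at most 1.22 read-based counts. Which table is nearer to the RNA at this locus was not tested. Per3 was higher in the read-based table as well, at 7.18 ± 1.48 TPM (n = 3), above the Per1 mean of 5.77 TPM there.

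Other genes below 1 TPM in at least 1 library were Tipin, Ciart, Rora, Usp2, Fbxl21 and Hlf, at means of 1.51, 1.26, 1.10, 0.27, 0.24 and 0.0067 TPM, and Rorb and Ppara, which had 0 counts in all 3 libraries of the alignment-based tables. In the read-based table Rorb had 0.36, 1.59 and 1.51 TPM and Ppara 0.062, 0.32 and 0.16 TPM. Rora and Rorb encode receptors that compete with REV-ERB proteins at ROR elements, and neither was expressed by the rule. Of the output factors that bind D-boxes, Tef (12.5 ± 5.50 TPM), Nfil3 (1.89 ± 0.76 TPM) and Dbp (1.74 ± 0.86 TPM, n = 3 each) were expressed and Hlf was not.

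**Figure D5:**
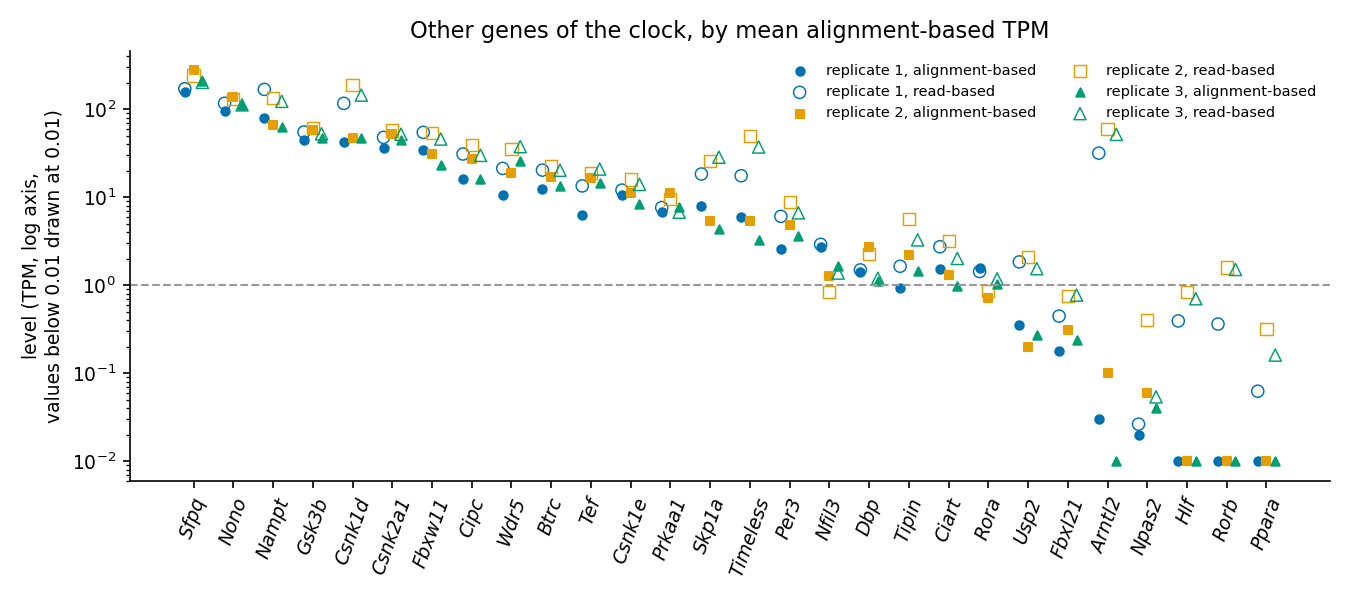
Level of further clock genes (TPM, log axis) in replicates 1, 2 and 3, filled for alignment-based and open for read-based values, ordered by alignment-based mean; values below 0.01 are drawn at 0.01 and the dashed line is at 1 TPM. Sfpq and Nono lead by alignment-based values, and for Arntl2 the open symbols lie at 31.6 to 58.9 TPM while the filled ones lie at or below 0.1 TPM.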

How the data were processed

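The data were 3 libraries of ribosomal RNA-depleted total RNA from a chromatin fraction, all of 1 group, so no contrast between groups was possible. Per library, the authors deposited expected counts, TPM and effective lengths in a gene table and a transcript table, whose columns per the file headers are those of RSEM. They also deposited estimated counts and TPM per transcript in a table with the columns of kallisto. Per the deposited notes, the build was mm10 with GENCODE M21, and the first tables came from a transcriptome alignment and the last from the reads. Program versions, settings and strand handling were not given in the sources used here. Because all rows of a library add up to 1 fixed TPM total, abundant short RNAs lower every other value.

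Of 81881 gene rows, 55536 matched the annotation; 26248 numeric rows and 97 spike-in rows were left out of gene counts and scaling. Expected counts were rounded and scaled by TMM in edgeR 4.0.16 under R 4.3.3, with at least 10 counts in each library for the spread. Other values came from Python 3.11.15 with scipy 1.17.1, and the code was tested on simulated data. All 10 members are named, with overlapping genes, isoforms that hold at least 20% of a member's TPM in any library in either quantification, the 5 highest other clock genes, those below 1 TPM in a library, and Npas2, Arntl2 and Per3; Tef, Nfil3, Dbp and Csnk1d are named beyond this rule. Some genes that the rule picks are left unreported. No genes of similar profile were sought, since 1 condition holds no pattern across conditions. The members and lists were chosen with earlier results of these data known. Promoters are from RefSeq (GRCm38.p6). Alternatives were other TPM thresholds, pseudocounts of 0.01 and 1, read-based values, CPM, rescaled TPM, medians, DESeq2 1.42.0 size factors, no count filter, other share and fold thresholds, and leaving out each replicate; isoforms of at least 1000 bases were added after seeing the data. Precision is limited by depth and by n = 3.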

Additional observations from a re-analysis of the deposited data

How the results depend on the processing

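No paired analysis was possible because there was 1 group. Rescaling TPM over genes of 200 or more effective bases moved the median member level to 12.5 TPM, against 5.02 as reported, and moved all 10 members upward; without 1 replicate it was 4.17 to 5.81, and over isoforms of at least 1000 bases, an alternative chosen after seeing the data, 3.48. At a TPM of at least 5, 3 members were expressed instead of 8, and 14 of the further clock genes instead of 19. Shares and the median SD over all genes were computed at the main settings alone. Values under the alternatives thus have no such background beside them. With CPM in place of TPM, Bhlhe40 over Bhlhe41 reversed to -0.95, and the repressor minus activator difference moved to -1.52; with medians it was -0.61, and without 1 replicate -1.19 to -0.97. The other pairs kept the sign of their mean under all pseudocounts, read-based values, CPM, isoforms of at least 1000 bases and each left-out replicate. The median SD of members was 0.46 on log2(TPM + 0.1) and 0.20 with DESeq2 size factors, and 0.11 to 0.23 without 1 replicate; it was 0.11 without replicate 1. Retained-intron isoforms held at least 25% of TPM in 5 members in all libraries; at 50% the number was 2 with the read-based table (Nr1d2 and Bhlhe40), 3 without replicate 1 (Nr1d2, Bhlhe40 and Clock) and 2 without replicate 2 (Nr1d2 and Arntl), so 1 to 3 without 1 replicate. At 1.5-fold, 1 member (Nr1d1) differed between the quantifications. The causes were not tested. Depth limits Nr1d1 and the short isoforms most, since they rest on few counts.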
